A study of Canis lupus familiaris with 12 samples.

Results

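The genes described here are 52 genes of DNA replication (S phase) and mitosis, chosen as a list of textbook cell cycle genes present in the deposited expression table. All 52 were among the 13672 genes listed and among the 12650 genes tested, which had more than 1 CPM (reads per 1000000, scaled by the authors) in at least 3 of the 12 libraries. RNASeq was done on MDCKII cells, a dog kidney epithelial cell line, of 4 genotypes with 3 libraries each: WT, CGN-KO (line 1G8), CGNL1-KO (line 22) and CGN/CGNL1 double-KO (line 21D3). CGN (cingulin) and CGNL1 (paracingulin) are cytoplasmic proteins of epithelial junctions, and each was knocked out by CRISPR/Cas9. Cells were untreated. Each knockout genotype was 1 line, so an effect of the genotype and a difference between lines cannot be told apart. The labels do not say whether the 3 libraries of a genotype came from separate cultures, and p-values measure only the spread between them. The samples are labeled 1 to 3 in each genotype, double-KO included, but 1 double-KO column has no number and is called unnumbered. It was not matched to a sample.

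Cells copy their DNA in S phase and separate it in mitosis. Before S phase, CDC6 and CDT1 load the MCM helicase onto replication origins, and geminin (GMNN) later blocks CDT1. E2F transcription factors switch on S-phase genes, cyclin-dependent kinases (CDKs) with cyclins drive each step, CDK inhibitors such as p21 (CDKN1A) and p27 (CDKN1B) restrain them, and Aurora and Polo kinases and the spindle checkpoint govern mitosis. In bulk RNA, a smaller share of cycling cells and less of an RNA per cycling cell cannot be told apart.

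Libraries held 16837532 to 30086076 reads, the most in CGN-KO replicate 1. The fewest reads behind a value of a member was 32, for CDKN3, and 144 for any other member. CGN stood at 199 to 233 CPM in WT, 47.0 to 56.5 CPM in CGN-KO and 39.7 to 45.3 CPM in double-KO. CGNL1 stood at 7.74 to 12.3 CPM in WT, 1.76 to 3.02 CPM in CGNL1-KO and 1.11 to 1.76 CPM in double-KO, and at 5.04 to 6.92 CPM in CGN-KO. All 10 epithelial markers were detected, and 12 of 14 markers of other cell types were not among the listed genes. The summed epithelial markers were 7439 to 7593 CPM in WT, 7849 to 7928 in CGN-KO, 7996 to 8235 in CGNL1-KO and 7482 to 7640 in double-KO, and their part in the results was not tested.

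Of the 52 cell cycle genes, 17 changed in at least 1 knockout line (32.7%, beside 34.2% of all genes) and 35 passed in none. None changed by 2-fold or more, against 1.31%, 0.617% and 1.41% of all genes in CGN-KO, CGNL1-KO and double-KO. The widest log2 fold change of a member against WT was 0.44 in size. AURKA was higher and CDC6 and GMNN were lower in all 3 lines. Calls are from limma on log2(CPM + 1), with p-values adjusted over all genes tested and a threshold of 0.05. The 3 comparisons share the WT libraries, so they are not independent of each other.

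**Figure D1:**
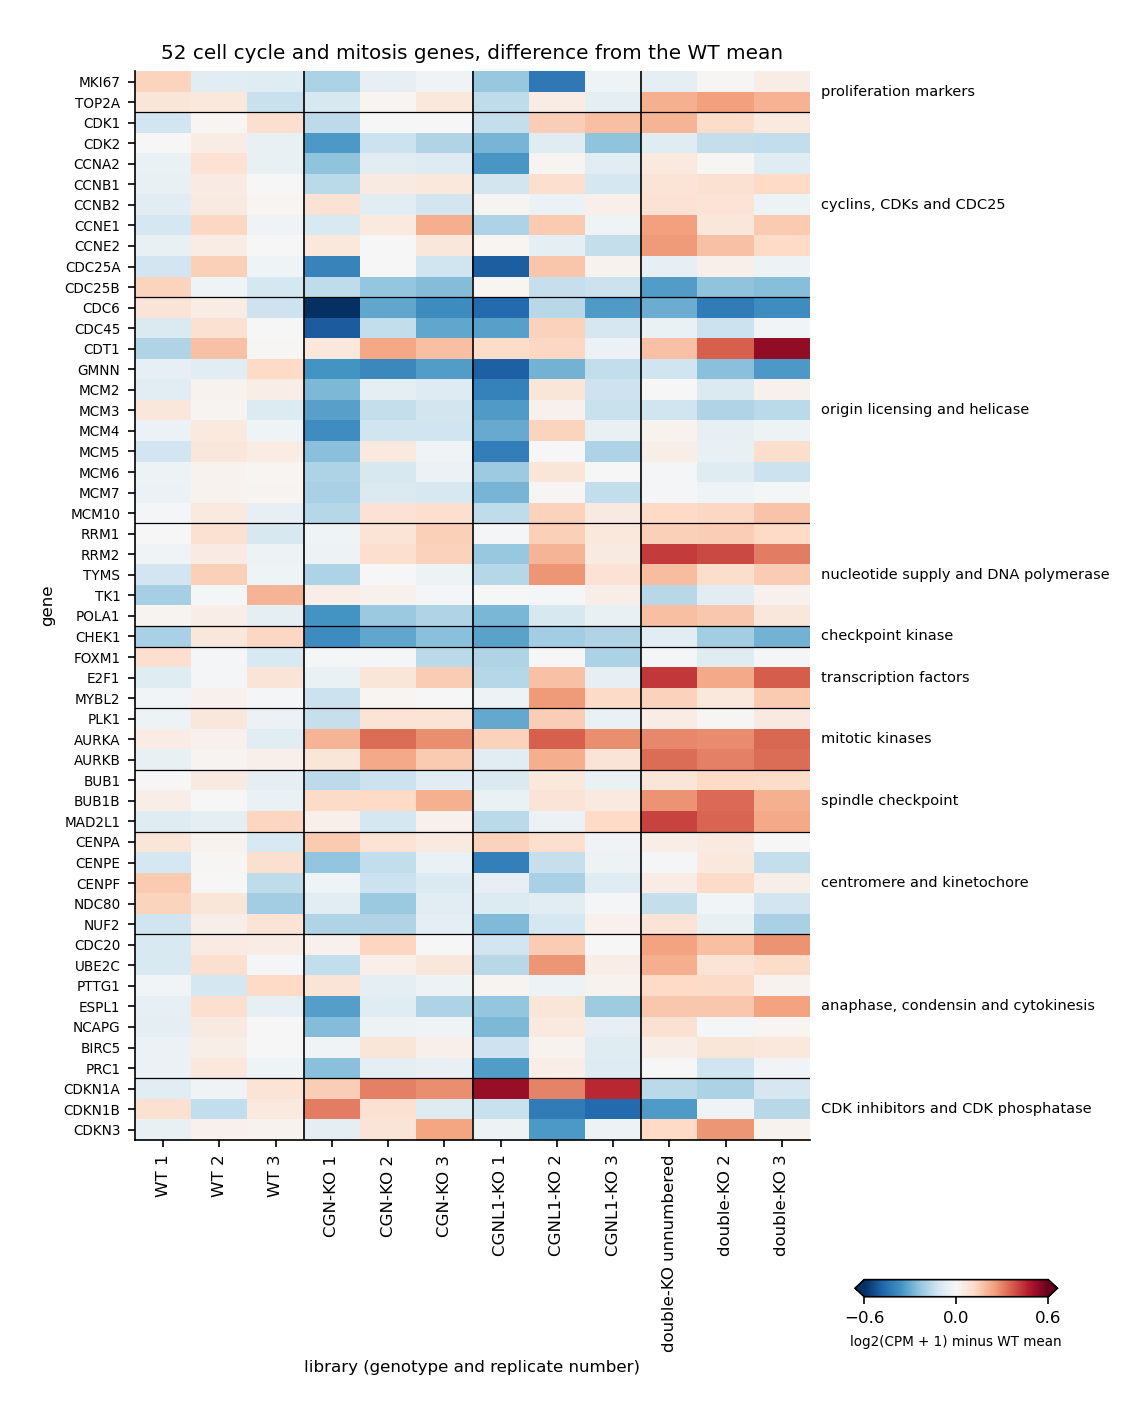
Each cell gives log2(CPM + 1) of 1 gene in 1 library minus the mean of the 3 WT libraries, with the 52 genes as rows grouped by role and the 12 libraries as columns. CDC6 is lower and AURKA higher across all 9 knockout libraries, and many replication genes are lowest in the libraries numbered 1 of CGN-KO and CGNL1-KO.

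In CGN-KO, 9 of 52 members passed (19% of all genes did), with 2 higher (11.2% of all genes) and 7 lower (7.87%). In CGNL1-KO, 4 passed (10.3% of all genes), with 2 higher (6.81%) and 2 lower (3.49%). In double-KO, 12 passed (26.3% of all genes), with 9 higher (14.8%) and 3 lower (11.5%). The share of members that passed was 17.3%, 7.69% and 23.1% in the 3 lines, at or below that of all genes. For CGN-KO, CGNL1-KO and double-KO, the members had a median log2 fold change of -0.05, -0.06 and 0.04, beside -0.0039, -0.0031 and -0.00036 for all genes tested.

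The origin licensing and helicase genes included the falls common to all lines. Of these 11 genes, 3 fell in CGN-KO (CDC6, GMNN and CDC45), 2 fell in CGNL1-KO (CDC6 and GMNN), and 2 fell (CDC6 and GMNN) and 1 rose (CDT1) in double-KO. Values per library are given below in the order of replicates 1, 2 and 3, and for double-KO as unnumbered, 2 and 3. CDC6, which loads the helicase, stood at 115, 113 and 100 CPM in WT, at 70.8, 87.7 and 83.7 in CGN-KO, at 78.8, 97.2 and 86.1 in CGNL1-KO, and at 88.7, 81.4 and 84.2 in double-KO. Every knockout library lay below every WT library. For CGN-KO, CGNL1-KO and double-KO, the log2 fold changes were -0.44 ± 0.09 (SE, limma adjusted p = 0.00174), -0.32 ± 0.09 (0.0226) and -0.36 ± 0.09 (0.00495), and later values follow the same order.

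GMNN, the inhibitor of CDT1, stood at 69.1, 68.1 and 77.8 CPM in WT, at 55.6, 54.4 and 56.5 in CGN-KO, at 50.7, 58.5 and 64.5 in CGNL1-KO, and at 65.8, 59.9 and 56.1 in double-KO. No knockout library reached the WT range. The log2 fold changes were -0.36 ± 0.08 (limma adjusted p = 0.00538), -0.31 ± 0.08 (0.024) and -0.24 ± 0.08 (0.0415). CDT1 stood at 22.2, 28.6 and 25.4 CPM in WT, at 26.5, 29.8 and 28.8 in CGN-KO, at 27.4, 27.6 and 24.6 in CGNL1-KO, and at 28.7, 32.6 and 36.9 in double-KO. Only the double-KO libraries lay wholly above WT, though narrowly (lowest 28.68 CPM, beside 28.65 in WT replicate 2). Their log2 fold change was 0.35 ± 0.10 (limma adjusted p = 0.0145). CDC45, a part of the active helicase, stood at 49.7, 56.5 and 52.9 CPM in WT, at 37.2, 47.7 and 42.5 in CGN-KO, at 42.0, 58.4 and 49.4 in CGNL1-KO, and at 51.4, 48.3 and 52.3 in double-KO. It fell in CGN-KO (-0.32 ± 0.10, limma adjusted p = 0.0396), whose libraries lay below those of WT.

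The helicase subunits themselves passed in no line. MCM2 stood at 195, 207 and 210 CPM in WT, at 169, 195 and 193 in CGN-KO, at 154, 214 and 187 in CGNL1-KO, and at 203, 192 and 208 in double-KO. The genotypes overlapped, with the lowest values in the libraries numbered 1 of the single-KO lines.

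Among the 5 genes of nucleotide supply and DNA polymerase, POLA1 fell in CGN-KO and RRM2 rose in double-KO. RRM2, a subunit of the enzyme that makes deoxyribonucleotides, stood at 645, 678 and 641 CPM in WT, at 641, 701 and 721 in CGN-KO, at 559, 753 and 679 in CGNL1-KO, and at 877, 861 and 809 in double-KO. The double-KO libraries lay above all others, with a log2 fold change of 0.37 ± 0.09 (limma adjusted p = 0.00386) against WT. POLA1, the catalytic subunit of DNA polymerase alpha, stood at 104, 106 and 98.3 CPM in WT, at 79.9, 87.8 and 90.5 in CGN-KO, at 84.6, 96.0 and 99.4 in CGNL1-KO, and at 116, 115 and 107 in double-KO. It was lower than WT in CGN-KO (-0.25 ± 0.07, limma adjusted p = 0.0138), and in double-KO its difference from WT of 0.14 ± 0.07 did not pass (0.147).

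The checkpoint kinase CHEK1 stood at 35.5, 42.8 and 44.5 CPM in WT, at 31.1, 32.6 and 34.1 in CGN-KO, at 32.4, 35.1 and 35.8 in CGNL1-KO, and at 39.0, 35.1 and 33.2 in double-KO. It fell in CGN-KO by 0.31 ± 0.08 on the log2 scale (limma adjusted p = 0.0155), with no overlap with WT, and did not pass in CGNL1-KO (0.0954) or double-KO (0.121). Of the 3 transcription factors, E2F1 stood at 59.5, 62.2 and 66.2 CPM in WT, at 60.8, 65.8 and 69.6 in CGN-KO, at 55.5, 70.9 and 60.4 in CGNL1-KO, and at 84.2, 73.4 and 80.7 in double-KO. The double-KO libraries lay above all others, with a log2 fold change of 0.34 ± 0.08 (limma adjusted p = 0.00652). FOXM1 and MYBL2, regulators of genes of the later cell cycle, passed in no line.

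**Figure D2:**
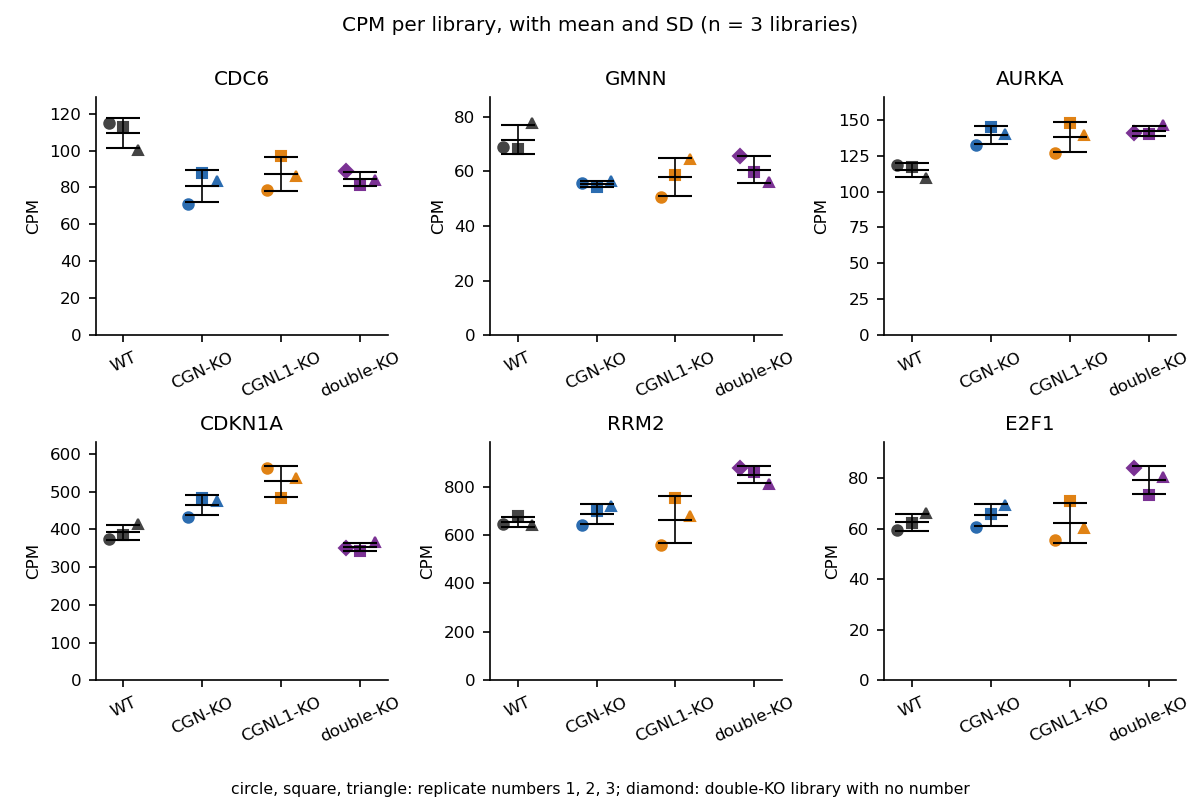
CPM per library on a linear axis from 0 for 6 genes, with points for the 3 libraries of each genotype and bars for the mean and SD. CDC6 and GMNN are lower in all knockout libraries, AURKA is higher, CDKN1A is higher in the single-KO lines, and RRM2 and E2F1 are highest in double-KO.

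Of the 9 cyclins, CDKs and CDC25 phosphatases, CDK2 and CDC25B fell in CGN-KO and CDC25B fell in double-KO. CDC25B, which activates CDKs at entry into mitosis, stood at 159, 142 and 134 CPM in WT, at 130, 123 and 120 in CGN-KO, at 146, 131 and 132 in CGNL1-KO, and at 114, 122 and 121 in double-KO. The CGN-KO and double-KO libraries lay below WT, with log2 fold changes of -0.22 ± 0.06 (limma adjusted p = 0.0273) and -0.28 ± 0.06 (0.00446). CDK1, the mitotic CDK, stood at 135, 148 and 157 CPM in WT, at 131, 147 and 146 in CGN-KO, at 132, 162 and 166 in CGNL1-KO, and at 169, 158 and 152 in double-KO. Its genotypes overlapped and it passed in no line. Its partner CCNB1 stood at 70.5, 75.2 and 72.7 CPM in WT, at 65.0, 75.7 and 76.1 in CGN-KO, at 67.3, 78.2 and 67.5 in CGNL1-KO, and at 77.0, 77.6 and 79.0 in double-KO. The double-KO values were all above WT but did not pass (limma adjusted p = 0.335). CCNE1, the G1/S cyclin, stood at 22.7, 26.8 and 24.2 CPM in WT, at 22.9, 25.5 and 28.7 in CGN-KO, at 21.4, 27.4 and 24.02 in CGNL1-KO, and at 29.3, 25.7 and 27.4 in double-KO, with overlapping genotypes and no call.

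Both Aurora kinases rose in double-KO. AURKA stood at 119, 117 and 109 CPM in WT, at 133, 145 and 140 in CGN-KO, at 127, 148 and 140 in CGNL1-KO, and at 140, 140 and 146 in double-KO. All 9 knockout libraries lay above WT, with log2 fold changes of 0.27 ± 0.06 (limma adjusted p = 0.00429), 0.26 ± 0.06 (0.01) and 0.30 ± 0.06 (0.00138). AURKB stood at 47.4, 49.5 and 50.1 CPM in WT, at 51.6, 57.4 and 54.7 in CGN-KO, at 46.7, 57.1 and 51.8 in CGNL1-KO, and at 62.1, 60.6 and 61.9 in double-KO. The double-KO libraries were the highest (0.32 ± 0.07, limma adjusted p = 0.00224). PLK1, the Polo kinase, stood at 119, 127 and 118 CPM in WT, at 110, 129 and 129 in CGN-KO, at 97.9, 135 and 118 in CGNL1-KO, and at 126, 122 and 126 in double-KO, with overlapping genotypes and no call.

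Of the 3 spindle checkpoint genes, MAD2L1 and BUB1B rose in double-KO. MAD2L1 stood at 88.6, 89.5 and 102 CPM in WT, at 95.3, 86.4 and 94.7 in CGN-KO, at 83.1, 90.9 and 101 in CGNL1-KO, and at 124, 119 and 109 in double-KO. The double-KO libraries lay above all others, with a log2 fold change of 0.33 ± 0.08 (limma adjusted p = 0.00445). BUB1B rose by 0.27 ± 0.05 (limma adjusted p = 0.00138). The 5 centromere and kinetochore genes passed in no line. Of the 7 genes of anaphase, condensin and cytokinesis, CDC20, which activates the anaphase-promoting complex, rose in double-KO by 0.23 ± 0.07 (limma adjusted p = 0.0166), and the rest passed in no line.

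The common proliferation marker MKI67 stood at 64.3, 55.9 and 55.6 CPM in WT, at 51.1, 56.4 and 57.6 in CGN-KO, at 49.7, 43.1 and 57.4 in CGNL1-KO, and at 56.2, 58.8 and 60.4 in double-KO. The genotypes overlapped, and MKI67 passed in no line. TOP2A, a topoisomerase of S phase and mitosis, rose in double-KO by 0.22 ± 0.07 on the log2 scale (limma adjusted p = 0.0197).

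The CDK inhibitor CDKN1A (p21) stood at 375, 386 and 415 CPM in WT, at 434, 482 and 475 in CGN-KO, at 563, 482 and 536 in CGNL1-KO, and at 350, 343 and 366 in double-KO. The single-KO libraries lay above WT and the double-KO libraries below it. It rose by 0.24 ± 0.06 (limma adjusted p = 0.0146) in CGN-KO and by 0.42 ± 0.06 (0.000368) in CGNL1-KO. The double-KO difference of -0.15 ± 0.06 did not pass (0.103). CDKN1B (p27) stood at 22.6, 19.0 and 22.1 CPM in WT, at 26.4, 22.6 and 20.02 in CGN-KO, at 19.2, 15.6 and 15.0 in CGNL1-KO, and at 16.5, 20.8 and 18.8 in double-KO. It passed in no line against WT, and CDKN3, a CDK phosphatase, passed in none.

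**Figure D3:**
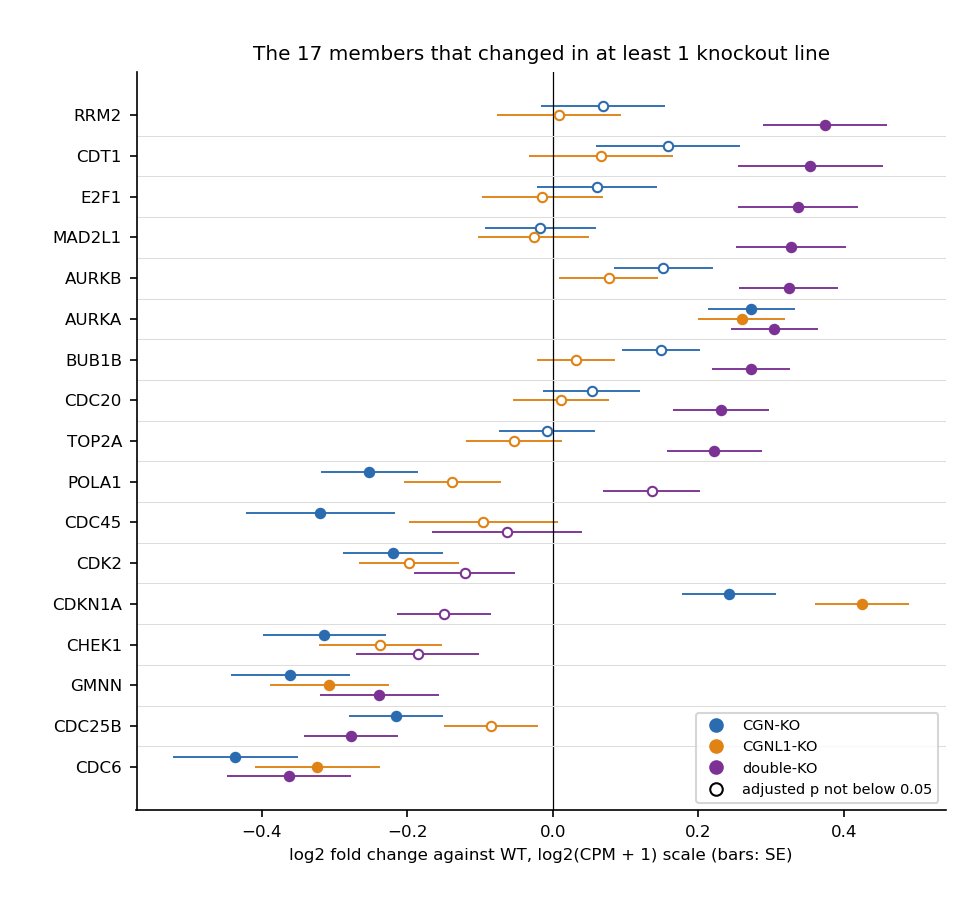
Log2 fold change against WT (points) with SE (bars) on the log2(CPM + 1) scale for the 17 members that changed in at least 1 line. Filled points passed at an adjusted p below 0.05. AURKA, CDC6 and GMNN have filled points for all 3 lines, and RRM2, CDT1, E2F1, MAD2L1, AURKB, BUB1B, CDC20 and TOP2A for double-KO alone.

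The number of calls depended on single libraries. Without WT replicate 2, 3 members passed in CGN-KO (CDC6, GMNN and AURKA, with 12.8% of all genes), and without CGN-KO replicate 3, 5 did (14.7%). Without WT replicate 3, 2 passed in CGNL1-KO (CDC6 and CDKN1A, with 7.77% of all genes), and without CGNL1-KO replicate 2, 7 did (9.1%). In double-KO, 8 passed without double-KO replicate 3 (18.5% of all genes). Several single calls were also lost when 1 library was left out, and the adjusted p given for each is the highest over all alternatives. In CGN-KO these were CDC45 (without WT 2, WT 3, CGN-KO 1, CGN-KO 3, CGNL1-KO 3 or any of the double-KO libraries, 0.149), CDC25B (without WT 1, WT 2, CGN-KO 2 or CGN-KO 3, 0.122), CHEK1 (without WT 2 or WT 3, 0.0764), CDKN1A (without WT 1, WT 2, CGN-KO 2 or CGN-KO 3, 0.0644), POLA1 (without WT 2 or CGN-KO 1, 0.0623) and CDK2 (without WT 1, WT 2, CGN-KO 1, CGN-KO 3 or double-KO 2, 0.15). In CGNL1-KO they were GMNN (without WT 3 or CGNL1-KO 1, 0.115), CDC6 (without WT 1, WT 2, CGNL1-KO 1 or CGNL1-KO 3, 0.0914) and AURKA (without WT 3). In double-KO they were GMNN (without any WT library, CGN-KO 3, double-KO 2 or double-KO 3, 0.183), TOP2A (without WT 3, double-KO 2 or double-KO 3, 0.0995), CDT1 (without WT 1 or double-KO 3, 0.0931) and CDC20 (without WT 1, the unnumbered library or double-KO 3, 0.0794).

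The knockout lines were also compared with each other. Across the 4 genotypes, 18 members differed by limma's F test (29.9% of all genes), among them BUB1, CDKN1B and ESPL1, which passed in no line against WT. Between CGN-KO and CGNL1-KO, 1 member passed (5.19% of all genes): CDKN1B was higher in CGN-KO by 0.45 ± 0.12 (limma adjusted p = 0.0333). When replicate numbers were blocked, 2 passed, CDC45 and CDKN1B (9.12% of all genes). No member passed without CGN-KO replicate 1, CGN-KO replicate 2, CGNL1-KO replicate 3 or double-KO replicate 3 (4.11%, 3.64%, 2.7% and 4.39% of all genes), and 4 passed without CGNL1-KO replicate 1 (8.63%).

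Against CGN-KO, 8 members differed in double-KO (8.84% of all genes), and against CGNL1-KO, 10 did (14.4%). CDKN1A was lower in double-KO than in CGN-KO (-0.39 ± 0.06, limma adjusted p = 0.00146) and CGNL1-KO (-0.57 ± 0.06, 2.14e-05). POLA1 was higher by 0.39 ± 0.07 (limma adjusted p = 0.00183) and 0.27 ± 0.07 (0.011), and RRM2 by 0.30 ± 0.09 (0.0343) and 0.36 ± 0.09 (0.00857). ESPL1 (separase, which cuts cohesin at anaphase), MAD2L1, E2F1 and TOP2A were also higher in double-KO than in both single-KO lines, BUB1 than in CGN-KO, and CDC20, AURKB and BUB1B than in CGNL1-KO. These comparisons share the double-KO libraries. Against CGN-KO, 4 passed without CGN-KO replicate 1, the unnumbered double-KO library or double-KO replicate 3 (4.92%, 4.32% and 4.89% of all genes), and 5 without CGN-KO replicate 2 or double-KO replicate 2 (7.86% and 5.58%). RRM2, E2F1 and TOP2A against CGN-KO were among the calls lost, with limma adjusted p of up to 0.141, 0.205 and 0.154 over all alternatives.

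Libraries of 1 genotype differed as well. Among the 11 numbered libraries, with genotype in the model, 12 members differed between replicate numbers by limma's F test (10.5% of all genes). All 12 were higher in number 2 and in number 3 than in number 1, while 47.3% of all genes that passed were higher in number 2. CDC25A, a phosphatase that activates CDKs at S-phase entry, had the largest F and stood at 49.7, 59.7 and 52.9 CPM in WT, at 40.6, 54.0 and 49.6 in CGN-KO, at 38.0, 60.8 and 54.7 in CGNL1-KO, and at 52.1, 55.1 and 52.7 in double-KO. Number 1 was the lowest library of WT and of both single-KO lines, and number 2 was above number 1 by 0.43 on the log2 scale (limma adjusted p = 0.00137). MCM5, a helicase subunit, stood at 229, 259 and 255 CPM in WT, at 208, 258 and 243 in CGN-KO, at 185, 248 and 218 in CGNL1-KO, and at 254, 240 and 267 in double-KO. TYMS, which makes thymidylate, stood at 94.6, 113 and 101 CPM in WT, at 90.04, 102 and 101 in CGN-KO, at 91.0, 123 and 109 in CGNL1-KO, and at 117, 110 and 114 in double-KO. In both, number 1 was again the lowest in the 3 genotypes with a column of that number. The unnumbered double-KO library was the lowest of its genotype for CDC25A but not for MCM5, and was the highest for TYMS.

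UBE2C, a ubiquitin-conjugating enzyme of the anaphase-promoting complex, stood at 130, 147 and 137 CPM in WT, at 124, 141 and 144 in CGN-KO, at 123, 166 and 142 in CGNL1-KO, and at 161, 146 and 149 in double-KO. Number 2 was above number 1 by 0.27 for MCM5 (limma adjusted p = 0.00663), 0.27 for TYMS (0.00925), 0.20 for CDK1 (0.0103) and 0.25 for UBE2C (0.0147). The others that passed were CDC45, MCM4, NCAPG, MCM2, CCNA2, PLK1 and PRC1.

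The mean over the 20 S-phase members, set against the WT mean, was -0.06, 0.06 and -0.00031 for WT, -0.21, -0.04 and -0.04 for CGN-KO, -0.23, 0.06 and -0.06 for CGNL1-KO, and 0.07, 0.02 and 0.06 for double-KO. The libraries numbered 1 of the single-KO lines were the lowest. For the 26 mitosis members, the range was -0.02 to 0.03 in WT, -0.08 to -0.0079 in CGN-KO, -0.14 to 0.03 in CGNL1-KO and 0.06 to 0.10 in double-KO. Number 1 was the lowest of its genotype for 39 of 52 members (75.0%) in CGN-KO and for 39 (75.0%) in CGNL1-KO, beside 38.5% and 38.7% of all genes tested, and for 29 (55.8%) in WT, beside 35.6%. The unnumbered double-KO library was the lowest of its genotype for 12 of 52 members (23.1%, beside 32.1% of all genes tested). The 2 libraries numbered 1 of the single-KO lines held 30086076 and 17374607 reads.

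**Figure D4:**
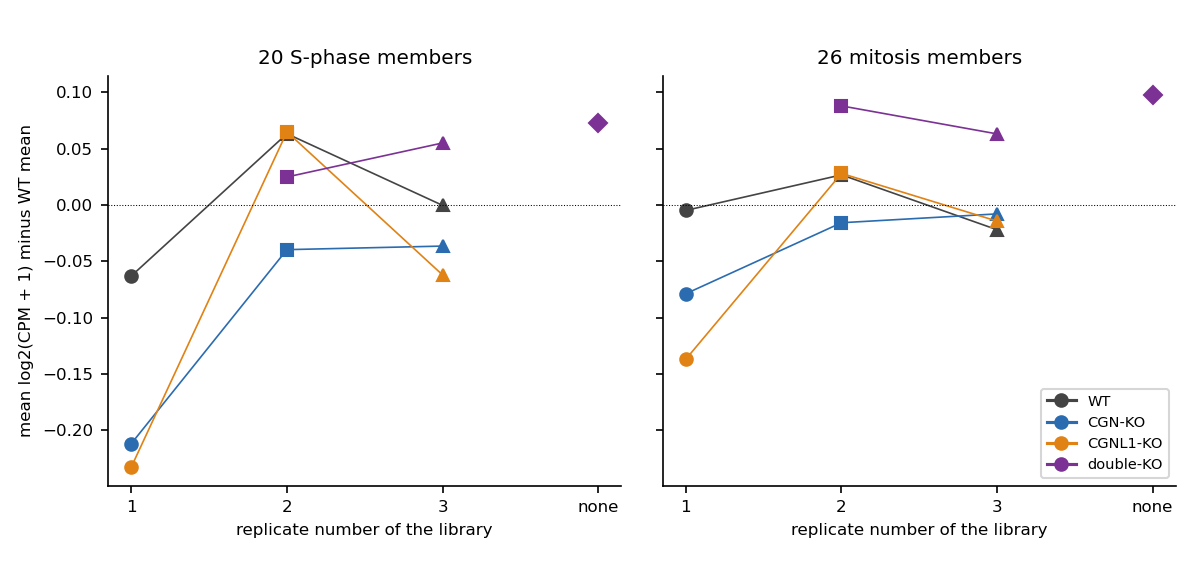
Mean log2(CPM + 1) of the 20 S-phase members (left) and the 26 mitosis members (right) minus the WT mean, by the replicate number of the library, with lines joining the numbered libraries of a genotype. The libraries numbered 1 of CGN-KO and CGNL1-KO lie lowest in both plots, and the double-KO mitosis means lie above those of all other genotypes.

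The count of members that differed between numbers rested on these libraries: 3 passed without CGN-KO replicate 1 (2.92% of all genes), 1 (CDC25A) without CGNL1-KO replicate 1 (2.39%), 5 without CGN-KO replicate 2 (5.85%), 3 without CGNL1-KO replicate 2 (4.92%), and 19 without WT replicate 1 (14.9%). With the libraries numbered 1 of both single-KO lines left out, an alternative chosen after seeing the data, CGN-KO had 10 members that passed (22% of all genes), CGNL1-KO 5 (13.4%) and double-KO 18 (34.1%). The calls of all genes also rose in this setting, and the share of members that passed in double-KO was 34.6%. What the numbers mark is not given in the sources used here.

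Some members moved together with their neighbours in the genome. Genes were ordered by a RefSeq table of another dog assembly (UU_Cfam_GSD_1.0), so only gene order is used. The 24 tested genes nearest to AURKA, from BCAS4 to GNAS, had a median log2 fold change of 0.35, 0.34 and 0.33 in the CGN-KO, CGNL1-KO and double-KO lines, with 23, 23 and 21 of 24 above 0. AURKA itself moved by 0.27, 0.26 and 0.30. PCNA, the sliding clamp of DNA replication and not one of the 52 genes, rose by 0.48, 0.52 and 0.53 (limma adjusted p = 3.27e-05, 2.94e-05 and 9.02e-06), and the median of its 24 neighbours on the same chromosome was 0.38, 0.46 and 0.46. With the median of the 24 nearest genes taken out of each library, AURKA stood at -0.07, -0.06 and -0.02 and passed in no line.

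The place of MAD2L1 is uncertain: this assembly lists it last of the 398 genes tested on its chromosome, so it has neighbours on 1 side only, and whether it lies there in the build of the files was not checked. All 12 genes listed next to it were above 0 in double-KO, with a median of 0.43, and with this taken out the difference was -0.09 against WT. The 16 neighbours of CCNE1 had a median of 0.25 in double-KO, all above 0, beside 0.16 for CCNE1 itself, which did not pass. Over whole chromosomes, the median log2 shift of double-KO from WT was 0.30 on that listed for MAD2L1 and 0.20 on that of CCNE1. CDC25B fell in CGN-KO and double-KO, where the median of its neighbours was 0.14 and 0.18. For E2F1, on the chromosome of AURKA, the neighbours had a median of 0.02 in double-KO. With the median of the whole chromosome taken out, the rise in double-KO was 0.18 and did not pass (limma adjusted p = 0.18). Of the 22 alternatives, only this one lost the call, so it passed with the nearest genes taken out. For CDC6, the neighbours had a median of 0.03, 0.03 and -0.0069. With the neighbours taken out, other calls against WT were lost as well. These were CDT1 (0.26, limma adjusted p = 0.0633) and GMNN (-0.19, 0.135) in double-KO, GMNN in CGNL1-KO (-0.29, 0.05, just above the threshold) and CDKN1A in CGN-KO (0.20, 0.0553), while CCNB1 passed in double-KO (0.24, 0.0236). The part of these neighbourhoods in the changes of the members was not tested further.

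**Figure D5:**
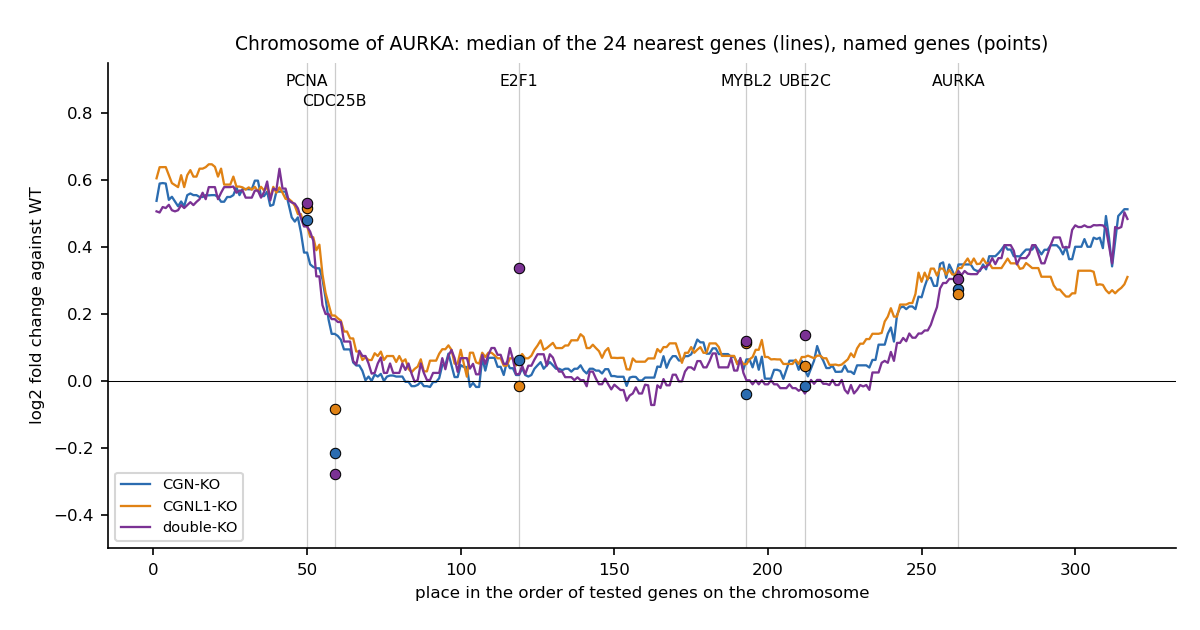
Lines give the running median log2 fold change against WT of the 24 nearest tested genes along the chromosome of AURKA, by gene order, for the 3 knockout lines, and points give named genes. PCNA and AURKA lie on the raised ends of the chromosome, close to the lines, while E2F1 in double-KO lies above its line and CDC25B below.

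Related genes outside the 52 were counted from lists of each pathway. Of 46 other replication genes, 2 rose and 8 fell in CGN-KO, 2 rose and 2 fell in CGNL1-KO, and 6 rose and 3 fell in double-KO. These were 21.7%, 8.7% and 19.6% of the list, beside 19%, 10.3% and 26.3% of all genes. POLE2, a subunit of DNA polymerase epsilon, fell by 0.38 ± 0.06 (limma adjusted p = 0.000122) in CGN-KO, and LIG1, a DNA ligase, rose by 0.35 ± 0.06 (0.000215) in double-KO. MCM8, a helicase of recombination, rose in all 3 lines, by 0.34, 0.53 and 0.54. It lies on the chromosome that holds PCNA and AURKA, and the median of its 24 neighbours was 0.49, 0.50 and 0.52. Of 52 other mitosis genes, 1 rose and 13 fell in CGN-KO, 6 fell in CGNL1-KO, and 5 rose and 3 fell in double-KO. The share that passed was 26.9%, 11.5% and 15.4%, and in CGN-KO 13 of the 52 were lower, beside 7.87% of all genes. WEE1, the kinase that inhibits CDK1, fell in all 3 lines, by 0.31 ± 0.07, 0.38 ± 0.07 and 0.49 ± 0.07 (limma adjusted p = 0.00339, 0.00124 and 5.01e-05). INCENP, a partner of AURKB, rose by 0.45 ± 0.05 (limma adjusted p = 1.31e-05) in double-KO. Values of the genes next to LIG1 and INCENP are not given here, and their part in these rises was not tested.

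Of 21 genes of the D cyclin, RB and E2F families, 3 fell in CGN-KO, 2 fell in CGNL1-KO, and 1 rose and 2 fell in double-KO, which came to 14.3%, 9.52% and 14.3%, below the share of all genes in each line. CCND2 fell by 0.20 ± 0.06 (limma adjusted p = 0.0404) in CGN-KO and by 0.30 ± 0.06 (0.00259) in double-KO. Of 3 tested inhibitors of the INK4 and KIP families, CDKN2B rose in CGN-KO, by 0.90 ± 0.19 (limma adjusted p = 0.00262). Of 19 p53 targets other than CDKN1A, 1 fell in CGN-KO, 1 rose in CGNL1-KO, and 1 rose and 6 fell in double-KO, or 5.26%, 5.26% and 36.8% of the list, beside 19%, 10.3% and 26.3% of all genes. PLK2 fell by 0.35 ± 0.10 in CGN-KO, rose by 0.54 ± 0.10 in CGNL1-KO and fell by 0.44 ± 0.10 in double-KO (limma adjusted p = 0.0176, 0.00151 and 0.00285). Of the 19 p53 targets, 7 also differed between replicate numbers by limma's F test, PLK2 among them (36.8%, beside 10.5% of all genes).

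Of 14 genes of the early response to mitogens, 2 rose (JUN and EGR1) and 4 fell in CGN-KO. In CGNL1-KO, 1 rose (PHLDA1) and 5 fell, and in double-KO, 2 rose (JUN and EGR1) and 5 fell. The share that passed was 42.9%, 42.9% and 50%, beside 19%, 10.3% and 26.3% of all genes. Between replicate numbers, 6 of the 14 also differed by limma's F test, ETV5, JUN, EGR1 and PHLDA1 among them (42.9%, beside 10.5% of all genes). ETV5, a transcription factor induced by ERK signaling, stood at 11.5, 7.23 and 7.36 CPM in WT, at 4.39, 2.67 and 3.31 in CGN-KO, at 5.98, 4.24 and 5.24 in CGNL1-KO, and at 2.71, 2.73 and 2.44 in double-KO. All knockout libraries lay below WT, with log2 fold changes of -1.11 ± 0.17 (limma adjusted p = 0.000198), -0.64 ± 0.17 (0.0229) and -1.39 ± 0.17 (1.68e-05). DUSP6, a phosphatase of ERK, fell by 0.31 ± 0.06, 0.32 ± 0.06 and 0.50 ± 0.06 (limma adjusted p = 0.00258, 0.00325 and 2.45e-05).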

How the data were processed

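RNASeq was done by the authors on 12 libraries, which they aligned with STAR 2.7.0f to CanFam3.1, counted with HTSeq 0.9.1 and normalized and filtered with edgeR. The annotation release and the strand setting are not given in the sources used here. The deposited values are CPM, used as a signal: reads divided by the library total times a TMM factor. Whole reads were recovered for 100% of values (within 0.1 read). Groups were taken from the labels.

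Genes above 1 CPM in at least 3 libraries were tested with limma 3.58.1 (R 4.3.3) on log2(CPM + 1), with all 4 genotypes fitted together and Benjamini-Hochberg adjustment. As alternatives, edgeR 4.0.16 on the recovered reads called 2429, 1264 and 3327 genes in CGN-KO, CGNL1-KO and double-KO, beside 2408, 1302 and 3333 by limma, and DESeq2 1.42.0, a pseudocount of 0.25, no filter, library totals, the compared genotypes alone, a replicate block, chromosome and neighbour medians taken out, and each library left out were also run. The steps were tested on simulated counts with no replicate or chromosome effects. Smaller changes were simulated as well, but the check required only that most changes of 2-fold or more be called. No member changed by that much, so this requirement does not bear on the calls of members.

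Same-numbered libraries of CGN-KO and CGNL1-KO deviated together from their genotype means (correlations of 0.632, 0.475 and 0.179 for numbers 1, 2 and 3), so the blocked value is given for that comparison. Correlations of WT with the single-KO lines ranged from -0.0822 to 0.373, and those with double-KO from -0.235 to 0.0859. The unnumbered double-KO library was left out of the block and of the test of replicate numbers.

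The members and lists were chosen with earlier results of these data known. Values in every library are given for MKI67, CDK1, CCNB1, PLK1, AURKA, MCM2, CCNE1, E2F1, CDKN1A and CDKN1B, and for up to 5 members with the largest rises and up to 5 with the largest falls in each line, and up to 5 with the largest F between replicate numbers. Other lists have values for up to 3 genes that passed, which were not always those with the largest changes.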

Additional observations from a re-analysis of the deposited data

Results flagged for a closer look

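The knockout lines were compared in direct limma tests, with p-values adjusted over all genes tested. Between CGN-KO and CGNL1-KO, 1 member differed (5.19% of all genes). Double-KO differed from CGN-KO for 8 (8.84%) and from CGNL1-KO for 10 (14.4%). CDKN1B was higher in CGN-KO than in CGNL1-KO by 0.45 on the log2 scale (adjusted p = 0.0333). Double-KO was above CGN-KO for POLA1 (0.39, adjusted p = 0.00183), ESPL1 (0.38, 0.00743), MAD2L1 (0.34, 0.00957), RRM2 (0.30, 0.0343), E2F1 (0.28, 0.0486), TOP2A (0.23, 0.0387) and BUB1 (0.22, 0.0167), and below it for CDKN1A (-0.39, 0.00146). Double-KO was above CGNL1-KO for RRM2 (0.36, adjusted p = 0.00857), MAD2L1 (0.35, 0.0051), E2F1 (0.35, 0.00928), ESPL1 (0.31, 0.016), TOP2A (0.28, 0.0102), POLA1 (0.27, 0.011), AURKB (0.25, 0.0224), BUB1B (0.24, 0.00654) and CDC20 (0.22, 0.0353), and below it for CDKN1A (-0.57, 2.14e-05). Many of these calls were lost under some of the 22 alternatives. Against CGN-KO, E2F1 was lost in 13, TOP2A in 9, RRM2 in 7, BUB1 in 3 and ESPL1 in 1, and against CGNL1-KO, CDC20 was lost in 8, AURKB in 7, ESPL1 in 3, and POLA1 and E2F1 in 1 each. CDKN1B was lost in 6. With the genes listed next to it taken out, MAD2L1 stood at -0.00044 against CGN-KO and -0.026 against CGNL1-KO, and its place in the genome is uncertain. Both of its calls were also lost with the chromosome median taken out, and that against CGN-KO without the unnumbered double-KO library.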

How the results depend on the processing

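Of the 44 fold changes of members that passed, 14 passed under every alternative run: CDC6 and GMNN in CGN-KO, CDKN1A in CGNL1-KO, CDC6, CDC25B, RRM2, AURKB and BUB1B in double-KO, CDKN1A and POLA1 between double-KO and CGN-KO, and CDKN1A, RRM2, TOP2A and BUB1B between double-KO and CGNL1-KO. E2F1 in double-KO against CGN-KO was lost most often, with an adjusted p of up to 0.205. The counts with edgeR were those of limma, although between replicate numbers CDC25B took the place of PRC1, and DESeq2 gave 12 in place of 10 for double-KO against CGNL1-KO. With 1 library left out in turn, 3 to 12 members passed in CGN-KO (12.8% to 23.1% of all genes). In CGNL1-KO, 2 to 7 did (6.69% to 11.2%), and in double-KO 8 to 13 (18.5% to 30%). Between CGN-KO and CGNL1-KO, 0 to 4 members passed (2.7% to 8.63%). Double-KO had 4 to 9 against CGN-KO (4.32% to 12%) and 7 to 13 against CGNL1-KO (8.74% to 16.3%). Among genotypes the range was 11 to 23 (22.7% to 35.8%), and between replicate numbers 1 to 19 (2.39% to 14.9%). With the compared genotypes alone, 0 members passed between CGN-KO and CGNL1-KO by limma (in the fit of all genotypes, 5 had an unadjusted p under 0.05, and limma, edgeR and DESeq2 each called 1). With the replicate block, 13 members passed in CGN-KO (27.1% of all genes), 8 in CGNL1-KO (15%) and 14 in double-KO (28.2%). It gave 2 between CGN-KO and CGNL1-KO (9.12%), 5 between double-KO and CGN-KO (7.3%) and 11 between double-KO and CGNL1-KO (15.4%). WT correlated with the single-KO lines at numbers 1 and 2 (0.318 to 0.373) but not at number 3 (-0.0822 and 0.011), so its numbers were not taken as pairs, and double-KO correlated by 0.0859 at most.

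With the median of the 24 nearest genes taken out, chosen after seeing the data, AURKA reversed to -0.070, -0.063 and -0.021 for the CGN-KO, CGNL1-KO and double-KO lines, and double-KO MAD2L1 to -0.095 against WT, -0.00044 against CGN-KO and -0.026 against CGNL1-KO. Several of the named genes that did not pass changed sign. With the nearest genes taken out these were CDK1 (0.028) and CCNB1 (0.108) in CGN-KO, CCNB1 (0.056) and CCNE1 (0.032) in CGNL1-KO, and CCNE1 (-0.110) in double-KO. With the chromosome median taken out they were E2F1 in CGN-KO (-0.132), and MKI67 (0.039) and CCNE1 (-0.041) in double-KO. Without the libraries numbered 1 of the single-KO lines they were CDK1 (0.0018) and CCNB1 (0.060) in CGN-KO, and CCNE1 (0.064), PLK1 (0.053) and E2F1 (0.064) in CGNL1-KO. In double-KO, MKI67 was 0.0013 with library totals and 0.033 with the replicate block, and PLK1 was -0.039 with the block. With 1 library left out, the ranges that crossed 0 were -0.052 to 0.060 for CCNB1, -0.019 to 0.138 for CCNE1, -0.107 to 0.0018 for CDK1 and -0.029 to 0.082 for PLK1 in CGN-KO, -0.107 to 0.064 for CCNE1, -0.110 to 0.064 for E2F1 and -0.175 to 0.053 for PLK1 in CGNL1-KO, and -0.052 to 0.012 for MCM2 and -0.036 to 0.067 for MKI67 in double-KO. The cause was not tested. Motif shares in promoters were not run. With 3 libraries per genotype and 1 line per knockout, small differences may be missed, and intervals cover these lines only.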
